A study of Homo sapiens and Mus musculus with 34 samples.

Results

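Untreated Kelly and untreated SKNAS, 2 human neuroblastoma cell lines, were compared to describe how their baseline RNA levels differ across all named genes. The comparison used 6 of the 34 samples of the series and 6 of its 24 human arrays, all those labelled as untreated cells of either line. Each line had 3 arrays, which the design text calls biological replicates. Kelly carries many extra copies of the MYCN gene (amplification) and SKNAS does not, as is generally known of these lines. Both were grown in DMEM with 10% fetal calf serum at 37°C under 5% CO2 and received no agent per the sample labels, whereas the design text calls the controls DMSO-treated. The other arrays used here came from the same lines after 1 h of the kinase inhibitor CYC065, and from untreated BE(2)C (MYCN amplified) and SH-SY-5Y (not amplified) cells, written BE2C and SHSY5Y below. With 1 line on each side, the line and its MYCN status cannot be told apart, and p-values measure the spread between cultures of 1 line, not between patients' tumours.

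Neuroblastoma arises from sympathetic precursors of the neural crest. MYCN and its relative MYC are transcription factors that pair with MAX at E-box sequences and drive genes of ribosome production, metabolism and the cell cycle. Neuroblastoma cells are known to take up an adrenergic state, kept by HAND2, GATA3 and other factors of sympathetic neurons, or a mesenchymal state, with PRRX1, AP-1 and YAP1 activity and genes of matrix and motility. Kelly is usually counted among adrenergic lines, and SKNAS is commonly described as having mesenchymal features and an activated RAS pathway.

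RNA was measured as log2 values on Affymetrix transcriptome arrays. A gene was called where the limma adjusted p for the difference was under 0.05, with no minimum fold and no filter on low values. Differences are Kelly minus SKNAS on the log2 scale, so that 1 unit is a 2-fold difference. Of 32803 named genes, 12098 (36.9%) were called, 5976 (18.2%) higher and 6122 (18.7%) lower in Kelly. A difference of at least 2-fold was called for 2422 genes (7.38%), 1199 (3.66%) of them higher and 1223 (3.73%) lower in Kelly. The 3 Kelly arrays lay entirely above or below the 3 SKNAS arrays for 15882 genes (48.4%). Of the 18132 coding genes with a place in the reference table, 25.7% were higher and 26.7% lower. Counts of called members below are to be read against these shares, those of coding genes for the lists of coding genes. The median difference over all genes was -0.01 and the median absolute difference 0.134, against a median SD between replicates of 0.0639 in Kelly and 0.0767 in SKNAS.

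RMA, the authors' normalization, brings arrays to a common scale. The median of all rows was 4.64 ± 0.02 in Kelly and 4.64 ± 0.02 in SKNAS (SD, n = 3 arrays each), and the median of 23 background control rows was 3.30 ± 0.01 in Kelly and 3.32 ± 0.04 in SKNAS. Replicate arrays correlated at r between 0.998 and 0.999 within Kelly and between 0.997 and 0.998 within SKNAS, and arrays of different lines at 0.954 to 0.956. A gene whose values lie near those of the background rows has a compressed difference, which is then a lower estimate. Genes with 2 rows on the array were taken from the brighter one, and the levels of different genes cannot be compared.

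MYCN, the amplified oncogene of Kelly, had log2 values of 11.75, 11.73 and 11.73 in Kelly, against 6.30, 6.01 and 5.91 in SKNAS. No SKNAS array came near a Kelly array, and the difference was 5.66 ± 0.09 (SE), or 50.7-fold (limma adjusted p = 1.18e-14). MYC, its relative, had 5.21, 5.10 and 5.10 in Kelly, against 6.71, 6.67 and 6.71 in SKNAS. It ran the other way in every array, 2.95-fold lower in Kelly (limma adjusted p = 7.98e-11). Of 13 genes of the MYC network, 5 were higher, 4 lower and 4 not called. The antagonists MXI1, MNT and MGA, which compete for MAX or repress its targets, were higher by 0.97, 0.70 and 0.39. MXD4, another antagonist, went the other way at -0.89, and MAX itself differed by -0.20. The call of MGA was lost without Kelly replicate 2 or SKNAS replicate 3. MYCL, the third family member, was not called at -0.01.

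Among the adrenergic factors, HAND1, a partner of HAND2 in sympathetic and heart development, had 10.86, 10.74 and 10.89 in Kelly, against 6.26, 6.43 and 6.41 in SKNAS. It was 22.0-fold higher in Kelly (limma adjusted p = 9.89e-15). GATA2, a zinc finger factor of sympathetic development, had 10.31, 10.16 and 10.34 in Kelly, against 8.68, 8.67 and 8.82 in SKNAS, a difference of 1.54 (limma adjusted p = 1.05e-09). ISL1, a LIM homeobox factor of sympathetic neurons, had 9.38, 9.31 and 9.46 in Kelly, against 8.54, 8.71 and 8.61 in SKNAS. Both lines thus gave ISL1 signals far above the background rows, and its difference of 0.76 was small beside that of HAND1.

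Of 30 adrenergic factors, 22 were higher in Kelly, 5 lower and 3 not called, with a median difference of 0.85 against -0.01 for all genes. TFAP2B, a factor of sympathetic neuron maturation, was higher by 3.09, and the LIM-only cofactors LMO1 and LMO3 by 2.57 and 2.16. The zinc finger repressor INSM2 was higher by 2.01 and its relative INSM1 by 1.17. PHOX2A, HAND2 and GATA3, further factors of sympathetic neurons, were higher by 1.40, 1.19 and 0.84. Among the exceptions were DACH1, at -1.29, and MEIS2, TBX2 and MEIS1, at -0.59, -0.58 and -0.23, the call of MEIS1 being lost without any one of 3 arrays. SOX4, TBX3 and PBX3 were not called, at -0.19, -0.13 and 0.02, although SOX4 and TBX3 were called with housekeeping centring.

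**Figure D1:**
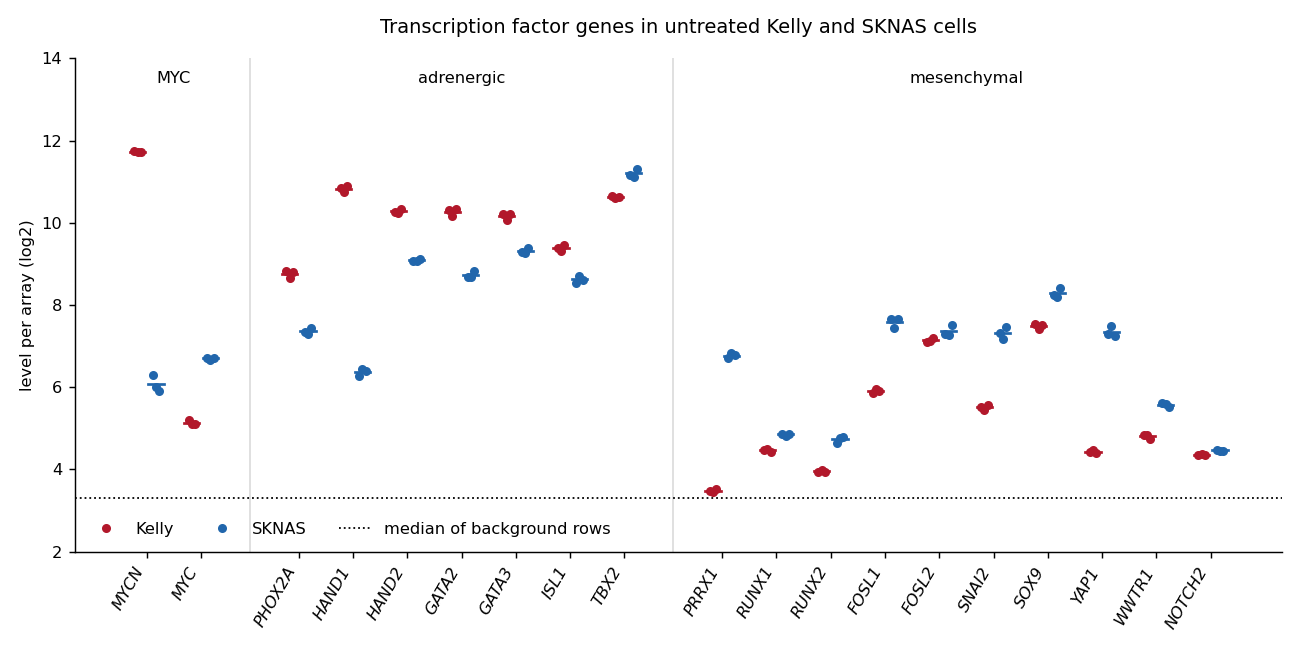
Log2 values of single arrays for regulators of both cell states, with the 3 Kelly arrays left of the 3 SKNAS arrays for each gene, bars at the means and a dotted line at the median of the background rows. For MYCN and HAND1 the Kelly points lie between 10.74 and 11.75 and the SKNAS points between 5.91 and 6.43, and for PRRX1 and YAP1 the Kelly points lie below all SKNAS points.

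The genes that make and store noradrenaline followed the same order. DBH, which turns dopamine into noradrenaline, had 12.02, 11.92 and 11.94 in Kelly, against 6.03, 5.88 and 6.00 in SKNAS. The difference of 5.99 ± 0.07 made it 63.6-fold higher in Kelly (limma adjusted p = 1.08e-15), with SKNAS values close to each other. SLC18A2, the vesicle transporter that loads monoamines, had 9.94, 9.91 and 10.02 in Kelly, against 5.02, 5.10 and 5.07 in SKNAS, 29.7-fold higher in Kelly. TH, the first and rate-limiting enzyme, was higher by 2.64 and DDC, the next one, by 3.82. Uptake and breakdown genes were higher as well, SLC6A2 (the noradrenaline transporter) by 2.57, SLC18A1 by 2.43 and MAOA by 1.97. Of 16 genes of this pathway, 11 were higher and 3 lower, with a median of 0.86. The lower ones were GCH1 and SPR, which make the cofactor of TH, at -0.83 and -0.71, and MAOB at -0.73. PNMT, which makes adrenaline, was not called at 0.00.

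Proteins and peptides of secretory vesicles split into a large higher group and a few strong opposites. CHGA, the chromogranin of dense core vesicles, had 11.72, 11.74 and 11.71 in Kelly, against 6.40, 6.85 and 6.56 in SKNAS, 34.7-fold higher in Kelly. DLK1, a membrane protein of the Notch ligand family that is made by adrenal chromaffin cells, had 12.18, 12.10 and 12.08 in Kelly, against 6.80, 6.77 and 6.70 in SKNAS, 41.2-fold higher. VIP, a neuropeptide, had 3.29, 3.49 and 3.60 in Kelly, against 11.03, 11.09 and 10.87 in SKNAS. Its Kelly values lay about at the background rows and it was 185-fold lower in Kelly (limma adjusted p = 3.53e-15), the opposite of CHGA. Of 34 genes, 23 were higher and 6 lower, with a median of 0.96. CARTPT and SST, both neuropeptide precursors, were higher by 4.16 and 2.90, SCG3 and CHGB, granule proteins, by 3.33 and 2.38, and RAB3C and CADPS, which act in vesicle release, by 3.18 and 3.08. Lower beside VIP were CADPS2 (-2.94), SCG2 (-2.90), VGF (-1.31), SYT1 (-0.82) and NPY (-0.54). The vesicle list was therefore not uniform, and 2 granins, CHGA and SCG2, differed in opposite directions.

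Neuronal cytoskeleton, axon and RNA-binding genes were higher in Kelly in 30 of 36 cases and lower in 2, with a median of 1.21. STMN2, a microtubule regulator of growing axons, had 11.05, 11.04 and 10.97 in Kelly, against 5.10, 5.07 and 5.32 in SKNAS, 57.9-fold higher in Kelly. ELAVL3, a neuronal RNA-binding protein, had 10.01, 9.98 and 10.07 in Kelly, against 4.92, 4.87 and 4.73 in SKNAS, 36.3-fold higher, and its relative ELAVL4 was higher by 3.29. The dendritic protein MAP2 differed by 3.50, the neurofilament genes NEFH and INA by 3.40 and 2.99, the axonal motor KIF1A by 3.03 and the growth cone protein DPYSL5 by 3.68. DPYSL3 and the light neurofilament NEFL went the other way, at -1.62 and -0.41, and MAP1B, TUBB4A, CHL1 and CNTNAP2 were not called, although CNTNAP2 was with the 6 arrays alone and MAP1B with quantile normalization. Of 18 genes for acetylcholine receptors and for the enzymes and the vesicle transporter of acetylcholine, 4 (22.2%) were higher and none lower. The shares of all coding genes were 25.7% and 26.7%, so the higher share did not stand out. The higher genes were CHRNA3, CHRNB2, CHRNA5 and CHRNB4, nicotinic subunits of autonomic ganglia, at 2.29, 2.30, 0.92 and 0.82. Neural crest and glial factors had 3 higher and 3 lower of 16 (18.75% each), both below the shares of coding genes. The largest difference among them was that of EDNRB, an endothelin receptor of crest cells, at 1.78. SOX10 and S100B, markers of Schwann cells, were not called at -0.03 and -0.08.

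Mesenchymal factors were mostly lower in Kelly, 27 of 41, with 3 higher and a median of -0.55. PRRX1, a homeobox factor that can drive the mesenchymal state, had 3.47, 3.45 and 3.53 in Kelly, against 6.72, 6.82 and 6.77 in SKNAS. The Kelly values lay close to the background rows and the difference was -3.29 ± 0.06, 9.76-fold lower (limma adjusted p = 2.37e-14). YAP1, the effector of the Hippo pathway, had 4.42, 4.48 and 4.39 in Kelly, against 7.30, 7.50 and 7.25 in SKNAS, 7.56-fold lower in Kelly (limma adjusted p = 1.31e-12). IFI16, a DNA sensor, differed by -5.30, the T-box factor TBX18 by -3.80, the BMP target ID1 by -1.97 and SNAI2, a driver of epithelial-mesenchymal transition, by -1.81. The AP-1 factor FOSL1 differed by -1.68 and FOSL2 by -0.22, RUNX2 by -0.78, RUNX1 by -0.39, SOX9 by -0.79 and WWTR1, the partner of YAP1, by -0.76. The 3 higher members were ZEB1 at 0.61, ZNF217 at 0.41 and SIX4 at 0.34, and the calls of SIX4 and FOSL2 were each lost without any one of 3 arrays. NOTCH2 and TWIST1, which are also linked to this state, were not called, at -0.11 and -0.02.

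The structural genes of mesenchymal cells were mostly lower in Kelly, and S100A10 had the largest difference that the naming rule covers. S100A10, the partner of annexin A2 at the plasma membrane, had 3.64, 3.40 and 3.66 in Kelly, against 12.18, 12.30 and 12.12 in SKNAS. It was 398-fold lower in Kelly, at -8.64 ± 0.10 (limma adjusted p = 1.27e-15), and ANXA2 itself differed by -4.44. ANXA1, an anti-inflammatory annexin, had 2.68, 2.69 and 2.67 in Kelly, against 9.14, 9.37 and 9.10 in SKNAS, all Kelly values below the median of the background rows. VIM, the intermediate filament of mesenchymal cells, had 6.98, 7.01 and 6.85 in Kelly, against 11.61, 11.53 and 11.55 in SKNAS, 24.5-fold lower in Kelly (limma adjusted p = 3.60e-15). Of 39 genes of this list, 34 were lower and 3 higher, with a median of -1.37. The membrane proteins EMP1, EMP3 and MYOF differed by -4.87, -4.81 and -4.79, and CD44, the hyaluronan receptor, by -2.42. The higher ones were CNN1 (0.62), CALD1 (0.58) and CD9 (0.23, a call lost without any one of 5 arrays), and MYL9 and CNN3 were not called.

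Matrix genes and their receptors were lower in most cases, with several exceptions among the basement membrane genes. Of 47 matrix genes, 29 were lower and 9 higher, with a median of -0.82. NID1, a linker of basement membranes, differed by -4.91, THBS1, an adhesive glycoprotein, by -4.71, HAS2, which makes hyaluronan, by -3.64, and BGN, a small proteoglycan, by -3.31. LAMA1, a laminin chain, had 8.07, 8.10 and 8.21 in Kelly, against 4.48, 4.49 and 4.46 in SKNAS. It was 12.6-fold higher in Kelly, and FN1 (fibronectin), often used as a mesenchymal marker, was higher by 1.88. Collagen IV followed these, with COL4A2 higher by 1.16 and COL4A1 by 0.54, while COL1A1 and COL1A2 differed by -0.82 and -0.47. Of 24 integrin subunits, 14 were lower and 1 higher. ITGA2, a collagen receptor subunit, had 3.50, 3.60 and 3.50 in Kelly, against 9.64, 9.73 and 9.64 in SKNAS, 70.3-fold lower in Kelly. ITGA3, ITGA5 and their common partner ITGB1 differed by -3.30, -2.90 and -1.62, and the exception was ITGA9 at 1.12. Cadherins were mixed, 8 higher and 4 lower of 19, with CDH13 at 1.73, CDH2 (N-cadherin) at -0.73 and CDH10 at -1.54.

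**Figure D2:**
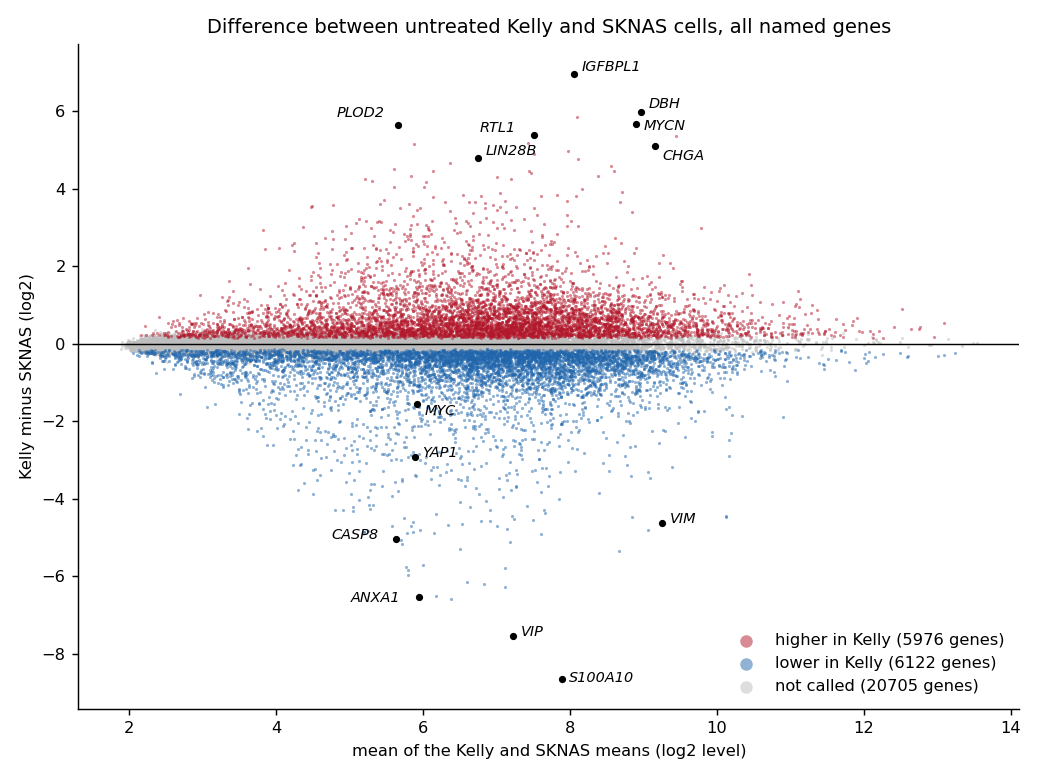
Difference in log2 value, Kelly minus SKNAS (vertical axis), against the mean log2 level of the 6 arrays (horizontal axis), 1 point for each of 32803 genes, with called genes coloured by direction and some named genes labelled. MYCN and DBH lie near 6 above zero, and S100A10 lies lowest at -8.64.

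Genes of Hippo signalling, in which YAP1 and WWTR1 act with TEAD factors, were lower in 19 of 27 cases and higher in 3, with a median of -0.76. NT5E, a surface enzyme that makes adenosine, differed by -4.56, AJUBA and PTPN14, both regulators of YAP1, by -3.73 and -3.66, and the receptor kinase AXL by -3.39. CYR61 and CTGF, the matricellular genes most used to read YAP activity, differed by -2.33 and -0.56, so by unequal amounts. TGFB2, AMOTL1 and LATS1 were higher, by 1.27, 1.14 and 0.95. Outputs of RAS and ERK signalling, which include feedback inhibitors, were lower in 15 of 22 cases and higher in 1 (EPHA4, 0.34), with a median of -0.85. PHLDA1 had 5.40, 5.44 and 5.43 in Kelly, against 9.08, 9.11 and 9.15 in SKNAS, 12.9-fold lower in Kelly. The feedback inhibitors SPRY1 and SPRY2 differed by -3.08 and -1.88, the phosphatase DUSP4 by -2.10, its relative DUSP6 by -0.80 and the ETS factor ETV4 by -2.74. EGR1, CCND1 and LIF were not called, at -0.10, -0.13 and -0.01, although CCND1 was with quantile normalization.

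Members of the pathway lists were searched for the motif of the pathway's factor in a window of 250 bases before to 50 after the start site. Candidates were only members called higher in Kelly for the growth list, and only those called lower for the Hippo and ERK lists. The direction was thus set by the choice, and not every list member was considered. Not every candidate was considered for display, so others carrying a motif may differ more. The promoters of 4 genes are shown, each with the largest difference among the considered candidates carrying the motif, or for FBL the next largest. They come from RefSeq on GRCh38.p14 and read 5′ to 3′ on the gene's strand, with the motif in capitals. In MCM2 (chr3:127598161-127598460, plus strand) and FBL (chr19:39846330-39846629, minus strand), both growth genes described below, it is the E-box CACGTG, in PLAUR (chr19:43670120-43670419, minus strand), the urokinase receptor, the AP-1 motif TGANTCA, and in PTPN14 (chr1:214551553-214551852, minus strand) the TEAD motif GGAATG, which is present there as its reverse complement.
MCM2: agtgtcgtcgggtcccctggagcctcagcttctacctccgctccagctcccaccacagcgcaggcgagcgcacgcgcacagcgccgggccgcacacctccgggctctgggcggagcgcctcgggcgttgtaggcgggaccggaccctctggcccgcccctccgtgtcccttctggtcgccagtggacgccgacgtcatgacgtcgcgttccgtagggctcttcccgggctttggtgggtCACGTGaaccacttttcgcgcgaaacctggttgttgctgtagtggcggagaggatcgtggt
FBL: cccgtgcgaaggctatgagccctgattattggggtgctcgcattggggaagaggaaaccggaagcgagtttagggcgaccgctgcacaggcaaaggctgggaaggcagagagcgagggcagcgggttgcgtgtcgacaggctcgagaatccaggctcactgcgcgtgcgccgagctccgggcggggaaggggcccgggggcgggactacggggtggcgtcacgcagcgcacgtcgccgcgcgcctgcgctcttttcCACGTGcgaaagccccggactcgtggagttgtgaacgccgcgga
PLAUR: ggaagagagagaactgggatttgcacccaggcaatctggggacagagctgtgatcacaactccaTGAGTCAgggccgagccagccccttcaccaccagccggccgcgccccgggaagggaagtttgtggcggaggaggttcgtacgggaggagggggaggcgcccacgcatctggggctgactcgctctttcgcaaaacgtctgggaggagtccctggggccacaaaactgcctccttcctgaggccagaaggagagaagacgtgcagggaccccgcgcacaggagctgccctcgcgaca
PTPN14: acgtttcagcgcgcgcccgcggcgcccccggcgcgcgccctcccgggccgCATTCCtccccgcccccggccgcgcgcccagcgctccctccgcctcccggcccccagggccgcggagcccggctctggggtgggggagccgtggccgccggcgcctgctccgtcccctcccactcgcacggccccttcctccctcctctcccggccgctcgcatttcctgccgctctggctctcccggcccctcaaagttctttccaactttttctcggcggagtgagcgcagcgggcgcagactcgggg
PLAUR differed by -1.24 and PTPN14 by -3.66. Searched on both strands, TGANTCA stood in 6.15% of the 16319 windows of measured genes, in 4.11% of those of genes at least 2-fold higher in Kelly and in 6.98% of those at least 2-fold lower. GGAATG stood in 11.9%, 10.3% and 13.5% of these windows, and CACGTG in 8.63%, 9.55% and 6.42%. The CACGTG motif was found in 15 of 40 windows (37.5%) of the growth genes, GGAATG in 8 of 21 (38.1%) of the Hippo genes and TGANTCA in 2 of 14 of the ERK outputs. The growth and Hippo lists hold known targets of these factors, so their shares alone do not bear on the difference between the lines. Among growth genes higher in Kelly, CACGTG stood in 7 of 21 windows (33.3%). Among lower members, GGAATG stood in 5 of 13 windows (38.5%) of the Hippo genes and TGANTCA in 2 of 10 of the ERK outputs. A match of letters does not show that a factor binds there.

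Receptor tyrosine kinases differed in both directions, with 11 higher and 16 lower of 41. ALK, the receptor mutated in familial neuroblastoma, had 7.58, 7.68 and 7.71 in Kelly, against 5.40, 5.50 and 5.30 in SKNAS, 4.78-fold higher in Kelly (limma adjusted p = 1.08e-11). FGFR2, EPHB3 and MET were higher by 1.40, 1.26 and 1.05. FLT1, a VEGF receptor, had 3.21, 3.25 and 3.23 in Kelly, against 7.88, 7.97 and 7.93 in SKNAS, 25.9-fold lower in Kelly. EGFR, MERTK and PDGFRA differed by -2.52, -2.22 and -1.82, and RET, a receptor of sympathetic neurons, by -0.36. NTRK2 and NTRK3 were not called, at 0.13 and -0.10, although NTRK2 was with quantile normalization.

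Of 41 ligands, 8 (19.5%) were higher and 12 (29.3%) lower, against 25.7% and 26.7% of all coding genes, so the list as a whole did not stand out. CCL2, a chemokine that attracts monocytes, had 4.61, 4.52 and 4.73 in Kelly, against 9.95, 9.63 and 9.65 in SKNAS, 34.8-fold lower in Kelly. HGF, the ligand of MET, differed by -3.47 and PTN, a ligand reported for ALK, by -3.20, so that the 2 ligands and their receptors ran in opposite directions. VEGFA and GAS6 were higher, by 1.46 and 0.84. In Notch signalling 10 of 24 genes were higher and 4 lower. HES1, a target of Notch that represses neuronal differentiation, had 4.60, 4.41 and 4.79 in Kelly, against 7.67, 7.91 and 7.78 in SKNAS, 9.09-fold lower in Kelly, whereas the feedback inhibitor NRARP and the target HEY1 were higher by 2.64 and 1.84. The ligand JAG1 differed by -2.12 and the inhibitory ligand DLL3 by 1.96.

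Of 38 TGF-beta and BMP genes, 21 were lower and 8 higher. The ligand BMP7 and the receptor ACVR2B were higher by 2.55 and 2.34, while the receptor TGFBR2, the effector SMAD3 and the inhibitor SMAD6 differed by -1.83, -1.57 and -1.25. Wnt genes were balanced, 11 higher (30.6%) and 12 lower (33.3%) of 36, against 25.7% and 26.7% of all coding genes. The inhibitor DKK1 and the receptor LGR5 differed by -3.67 and -2.47, and the receptor FZD5 and the ligand RSPO1 by 2.07 and 1.56. Of 18 retinoid genes 3 (16.7%) were higher and 5 (27.8%) lower, again not far from the shares of coding genes. The receptors RARG and RARB differed by -1.16 and -0.85 and the binding proteins CRABP2 and CRABP1 by -1.29 and -1.05.

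Genes of innate immunity were lower in Kelly in 30 of 45 cases and higher in 3, with a median of -0.44. IFI16 had 3.63, 3.99 and 3.94 in Kelly, against 9.01, 9.27 and 9.17 in SKNAS, 39.4-fold lower. TLR3, a sensor of double-stranded RNA, had 2.94, 2.89 and 2.97 in Kelly, against 7.12, 7.13 and 7.22 in SKNAS, 18.7-fold lower. The membrane proteins IFITM2 and IFITM3 differed by -3.82 and -3.23, the GTPase GBP1 by -2.48, the sensor DDX58 by -1.64, and the signal transducers JAK1 and STAT2 by -1.08 and -0.96. Classical interferon targets were not all among them, as ISG15, MX2, OAS2 and IRF7 were not called, at -0.15, -0.06, -0.01 and -0.03. The exceptions were SAMHD1, IFNGR1 and IFIT5 at 0.67, 0.28 and 0.27, and the call of IFIT5 was lost without Kelly replicate 3 or SKNAS replicate 1.

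Of 21 measured antigen presentation genes, 13 were lower and 3 higher. The checkpoint ligand CD274 (PD-L1) had 3.15, 3.14 and 3.17 in Kelly, against 5.88, 6.06 and 5.82 in SKNAS, 6.80-fold lower in Kelly, and PDCD1LG2 differed by -1.38. The proteasome activator subunits PSME1 and PSME2 differed by -1.74 and -1.31 and the peptide trimming enzyme ERAP1 by -1.56. ULBP1, ULBP3 and ULBP2, ligands of the NKG2D receptor of natural killer cells, were the 3 higher ones, at 2.14, 1.93 and 0.66. The classical MHC genes were not analysed here.

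Cell death genes were lower in 18 and higher in 10 of 46 cases. CASP8, the initiator caspase of death receptors, had 3.21, 3.21 and 2.92 in Kelly, against 8.07, 8.30 and 8.06 in SKNAS. The Kelly values lay at or under the background rows, and the gene was 32.6-fold lower in Kelly (limma adjusted p = 4.21e-14). MLKL, the pore protein of necroptosis, differed by -3.38, CASP4, an inflammatory caspase, by -2.27, and the adaptors RIPK1 and FADD by -1.46 and -0.88. The antiapoptotic BCL2 was higher by 1.78 and the proapoptotic HRK by 1.14, while MCL1, another antiapoptotic gene, differed by -0.27. The death receptors TNFRSF10A and TNFRSF10B were not called, at -0.06 and 0.05.

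LIN28B, which blocks the maturation of let-7 microRNAs, had 9.14, 9.11 and 9.17 in Kelly, against 4.37, 4.28 and 4.41 in SKNAS. The difference of 4.79 ± 0.07 made it 27.7-fold higher in Kelly (limma adjusted p = 6.35e-15). IGF2BP1, an oncofetal RNA-binding protein, had 10.81, 10.85 and 10.89 in Kelly, against 6.38, 6.14 and 6.25 in SKNAS, 24.1-fold higher. LIN28A, the relative of LIN28B, and IGF2BP3 and IGF2BP2, relatives of IGF2BP1, differed far less. LIN28A was not called at -0.02, and IGF2BP3 and IGF2BP2 differed by 0.26 and -0.28. Of 23 genes of this list, 11 were higher and 6 lower. TRIM71, DICER1 and ARID3B, all with let-7 sites in their RNA, were higher by 1.52, 1.41 and 1.40, MIR17HG, the host of the miR-17 to miR-92 cluster, by 0.96, and ZCCHC6, which adds uridines to RNA ends, differed by -1.37.

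Rows for microRNA hairpins measure precursor and host RNA, not the mature microRNA. Of 51 measured, 3 (5.88%) were higher and 11 (21.6%) lower, against 18.2% and 18.7% of all named genes. The lower share was thus close to that of all genes. The mature sequences of 11 of the 14 called hairpins are shown, with the seed, bases 2 to 8, through which targets are recognised, in capitals. The 11 were selected by name, and of the 3 higher rows only that of MIR17 is among them. They are from RefSeq (GRCh38.p14), 5′ to 3′.
miR-17-5p: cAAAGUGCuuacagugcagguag
miR-21-5p: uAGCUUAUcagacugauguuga
miR-29a-3p: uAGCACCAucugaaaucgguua
let-7a-5p: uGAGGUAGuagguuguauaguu
let-7c-5p: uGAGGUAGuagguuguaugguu
miR-137-3p: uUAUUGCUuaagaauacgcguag
miR-181b-5p: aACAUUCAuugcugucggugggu
miR-199a-5p: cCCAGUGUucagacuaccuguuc
miR-221-3p: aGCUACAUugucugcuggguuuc
miR-222-3p: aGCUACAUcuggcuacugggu
miR-503-5p: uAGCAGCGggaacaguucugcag
The seeds group them. miR-221-3p and miR-222-3p, known to target the inhibitor CDKN1B, share GCUACAU, with hairpin rows at -0.87 and -0.53. let-7a-5p and let-7c-5p share GAGGUAG, with rows at -0.45 and -0.43, while the rows of 7 other let-7 genes were not called. MIR17, from the oncogenic cluster in MIR17HG, had 7.17, 7.19 and 7.39 in Kelly, against 6.06, 6.10 and 6.10 in SKNAS, the one row among those shown that was higher in Kelly. MIR199A2 had 4.04, 4.16 and 3.92 in Kelly, against 6.82, 6.96 and 6.85 in SKNAS, and differed by -2.83. The others shown were MIR21 at -1.27, MIR503 at -1.10, MIR137 at -1.07, MIR29A at -1.06 and MIR181B1 at -1.02. In the treated arrays MIR21, MIR199A2 and MIR17 differed by -1.42, -1.64 and 1.06, but MIR221 and MIR503 by 0.02 and 0.06, so those rows did not repeat.

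Members of the list of growth genes known as MYC and MYCN targets were higher in 27 and lower in 8 of 51 cases, with a median of 0.17. The list also holds a few targets that are not growth genes, and its counts do not separate driven from repressed targets. MTHFD2, a mitochondrial folate enzyme, had 10.34, 10.29 and 10.32 in Kelly, against 8.62, 8.80 and 8.68 in SKNAS, 3.06-fold higher in Kelly. ODC1, which starts polyamine synthesis, was higher by 1.17, the replication helicase subunits MCM5, MCM2 and MCM3 by 1.35, 1.15 and 0.79, and FBL, a nucleolar methyltransferase, by 0.84. MCM7, CDK4 and LDHA differed the other way, at -0.32, -0.41 and -0.27. NCL and NPM1, abundant nucleolar proteins, were higher by 0.25 and 0.37, while TERT (telomerase) was not called at 0.00. The 50.7-fold difference in MYCN thus stood beside differences under 2-fold in nearly all of these genes, with 4 at least 2-fold higher and 2 at least 2-fold lower.

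Serine, one-carbon and amino acid genes were higher in 23 and lower in 4 of 36 cases, with a median of 0.32. PHGDH, which starts serine synthesis, had 8.07, 8.04 and 8.14 in Kelly, against 5.71, 5.45 and 5.46 in SKNAS, 5.84-fold higher in Kelly. ALDH1L2, MTHFD1L and MTHFD2, all of the mitochondrial folate cycle, were higher by 2.48, 1.16 and 1.61, PSAT1 and ASNS by 1.01 and 1.35, and the amino acid transporter SLC7A5 by 2.08. The cystine transporter SLC7A11 and the glutamine transporter SLC38A2 differed by -1.11 and -0.95.

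Of 33 genes of G1 control, 6 were higher and 15 lower. CDK6, a G1 kinase, had 11.18, 11.23 and 11.22 in Kelly, against 9.62, 9.84 and 9.65 in SKNAS, 2.84-fold higher in Kelly, whereas its partner cyclins CCND1 and CCND2 and the inhibitor CDKN2A were not called. E2F6 and E2F2 were higher by 1.16 and 1.15, and E2F7 and E2F4 differed by -1.19 and -0.93.

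Of 39 telomere and chromatin genes, 19 were higher and 4 lower. HMGN5, a nucleosome-binding protein, differed by 2.10, TET1, which oxidises methylcytosine, by 1.89, the DNA methyltransferase DNMT3A by 1.53, the Polycomb subunits SUZ12 and EZH2 by 1.15 and 0.93, and ATRX by -0.36. Of 22 surface proteins used as therapeutic targets, 12 were higher and 7 lower. CD24, a glycoprotein read by macrophages, had 9.30, 9.48 and 9.17 in Kelly, against 4.92, 5.36 and 4.91 in SKNAS, 19.1-fold higher in Kelly, NCAM1 was higher by 2.35, and B4GALNT1, an enzyme of GD2 synthesis, by 1.21. CD276 (B7-H3), THY1 and the TWEAK receptor TNFRSF12A differed by -0.23, -0.85 and -2.25. Of 25 ABC transporters, 8 were higher and 6 lower, with the drug exporters ABCC2 and ABCC3 at -4.50 and -1.71, ABCC5 and ABCC1 at 1.28 and 0.70, and ABCB1 not called at 0.03.

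**Figure D3:**
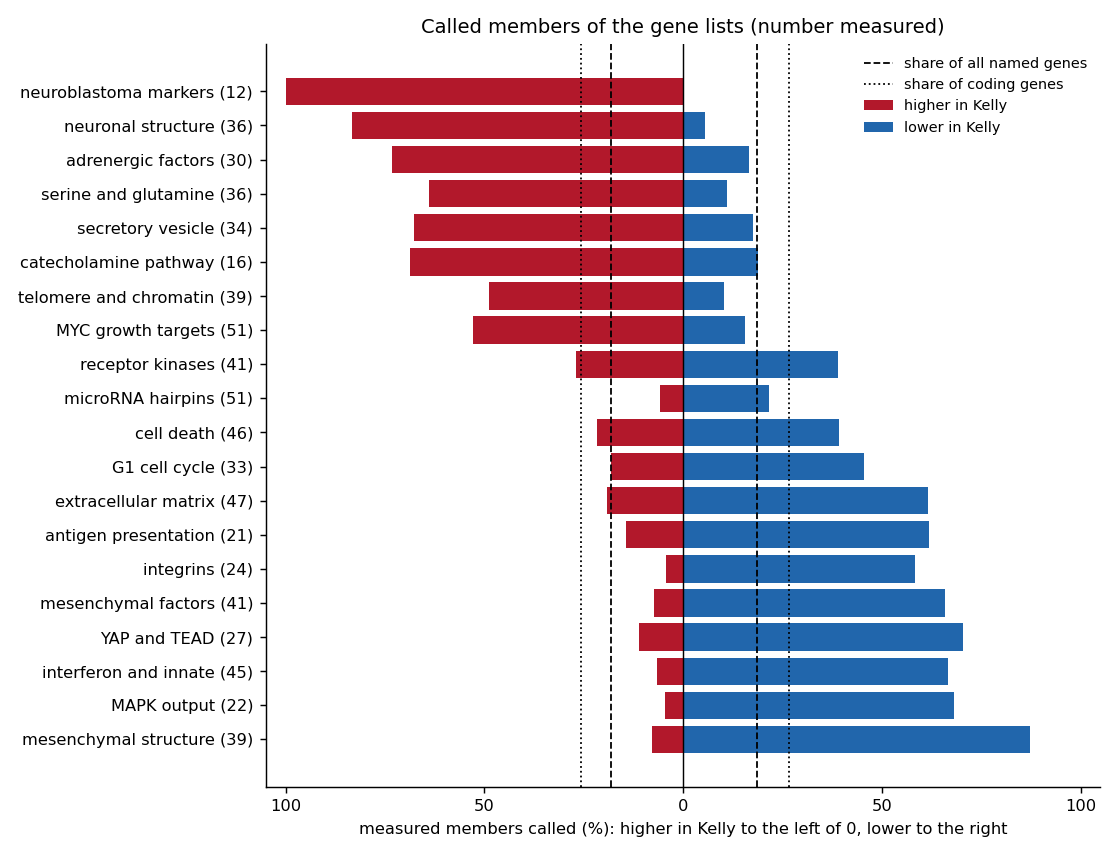
For 20 of the 37 gene lists, the percentage of measured members called higher in Kelly (bars to the left of 0) and lower in Kelly (bars to the right), with the shares of all genes, 18.2% and 18.7%, as dashed lines, those of coding genes, 25.7% and 26.7%, as dotted lines and the number of members measured in brackets. Adrenergic, neuronal and catecholamine lists reach farther to the left, and mesenchymal, integrin, ERK output and innate immunity lists farther to the right.

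The largest differences outside the lists were spread over other functions. IGFBPL1, a secreted relative of the IGF-binding proteins, had 11.58, 11.48 and 11.55 in Kelly, against 4.34, 4.36 and 5.03 in SKNAS. With 124-fold it was the most raised gene in Kelly under the naming rule (limma adjusted p = 1.10e-13), and the third SKNAS array stood above the other two. PLOD2, a collagen lysyl hydroxylase, had 8.53, 8.51 and 8.43 in Kelly, against 2.80, 2.82 and 2.88 in SKNAS, higher in Kelly although most matrix genes were lower. RTL1, an imprinted gene beside DLK1, was higher by 5.38, the desmosomal cadherin DSG2 by 5.16, NMNAT2, which protects axons, by 4.78, the glutamate receptor GRM8 by 4.67, CDR1 by 4.52, the fatty acid elongase ELOVL2 by 4.45, LPPR4 by 4.98 and the membrane protein EMB by 4.45.

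On the lower side, MGP, an inhibitor of calcification, differed by -6.59, TYRP1, an enzyme of melanin synthesis, by -6.50, IL13RA2, a decoy receptor for interleukin 13, by -5.98 and HPGDS, which makes prostaglandin D2, by -5.83. MYRFL, SYNPO2 (an actin-binding protein), LRRCC1 (a centrosomal protein), PRSS12 (a secreted protease), GPR126 (an adhesion receptor) and the kinase VRK2 differed by -6.20, -5.78, -5.72, -5.35, -5.16 and -5.07. Among all called genes, 30 were at least 16-fold higher and 62 at least 16-fold lower in Kelly.

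Cell type markers were compared between the lines, which does not by itself settle the identity of either. All 12 defining markers of neuroblastoma cells, several of them given above, were higher in Kelly. Their means lay between 6.08 and 11.96 in Kelly and between 4.22 and 9.75 in SKNAS. In BE2C against SHSY5Y, 2 of these markers were higher and 9 lower. For the 10 endothelial markers, means lay between 3.28 and 7.10 in Kelly and between 3.28 and 7.02 in SKNAS, and KDR was the only one called (0.31). Of 11 leukocyte markers 2 were lower in Kelly, namely PTPRC (CD45), with 2.86, 2.94 and 2.86 in Kelly, against 8.65, 8.72 and 8.59 in SKNAS, and CD68 at -3.28. CD3E, CD14 and LYZ, each defining for a leukocyte type, were not called. Of 10 epithelial markers, 3 were lower in Kelly, the keratins KRT18 (-4.01) and KRT8 (-3.42) and CLDN4 (-0.61), while EPCAM and CDH1 were not called. The part of other cells in the results was not tested. Of 14 common control genes, 5 were higher and 5 lower, with GAPDH at 0.02.

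The genes around MYCN on the short arm of chromosome 2 were higher in part. Of the 40 named genes nearest to MYCN, 20 on each side, 11 were called higher and 2 lower. Among all named genes 18.2% were higher and 18.7% lower, and among coding genes 25.7% and 26.7%. The 40 include small RNA and other noncoding genes. DDX1 and NBAS, which are often amplified together with MYCN, were higher by 0.66 and 1.07, and FAM49A, the next named gene after MYCN, had 7.12, 7.14 and 7.25 in Kelly, against 4.08, 4.01 and 4.13 in SKNAS, 8.56-fold higher in Kelly. MYCNOS, which overlaps MYCN on the opposite strand, was higher by 2.31, and MYCNUN by 0.31. TRIB2, a pseudokinase farther away, was higher by 2.15, while SMC6, RDH14 and LAPTM4A were not called, at -0.11, 0.02 and 0.10. In BE2C against SHSY5Y, the other pair, DDX1 differed by 0.60, MYCNOS by 1.41, NBAS by 0.13 and FAM49A by -0.78.

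Differences also followed position elsewhere. Read against the shares of all coding genes, chromosome 22 stood apart, with 206 of 402 genes (51.2%) higher, 37 (9.20%) lower and a median of 0.23. SMARCB1, a chromatin remodelling subunit there, was higher by 1.25. On chromosome 3, 42.9% of 1005 genes were higher and 15.6% lower. Chromosomes 8 and 2 leaned the other way, with 18.4% higher and 38.8% lower on chromosome 8 and 21.7% higher and 36.2% lower on chromosome 2. Runs of 40 neighbouring genes showed this more locally. The run between ALKBH4 and DLD on chromosome 7 had 31 lower and 0 higher genes with a median of -0.72, and that between RND3 and DPP4 on chromosome 2 had 25 lower and 2 higher with a median of -0.56. The run between ZNF431 and SLC7A9 on chromosome 19, which begins in a cluster of zinc finger genes, had 28 higher and 5 lower with a median of 0.72. The run between LAMTOR1 and ARRB1 on chromosome 11 had 27 higher and 1 lower with a median of 0.54, and that between ENTHD1 and CYP2D6 on chromosome 22 had 26 higher and 0 lower with a median of 0.52. Copy number was not measured in these data, and its part in the differences was not tested. The first and last genes of these runs are given as limits, with the runs chosen after their values were seen.

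**Figure D4:**
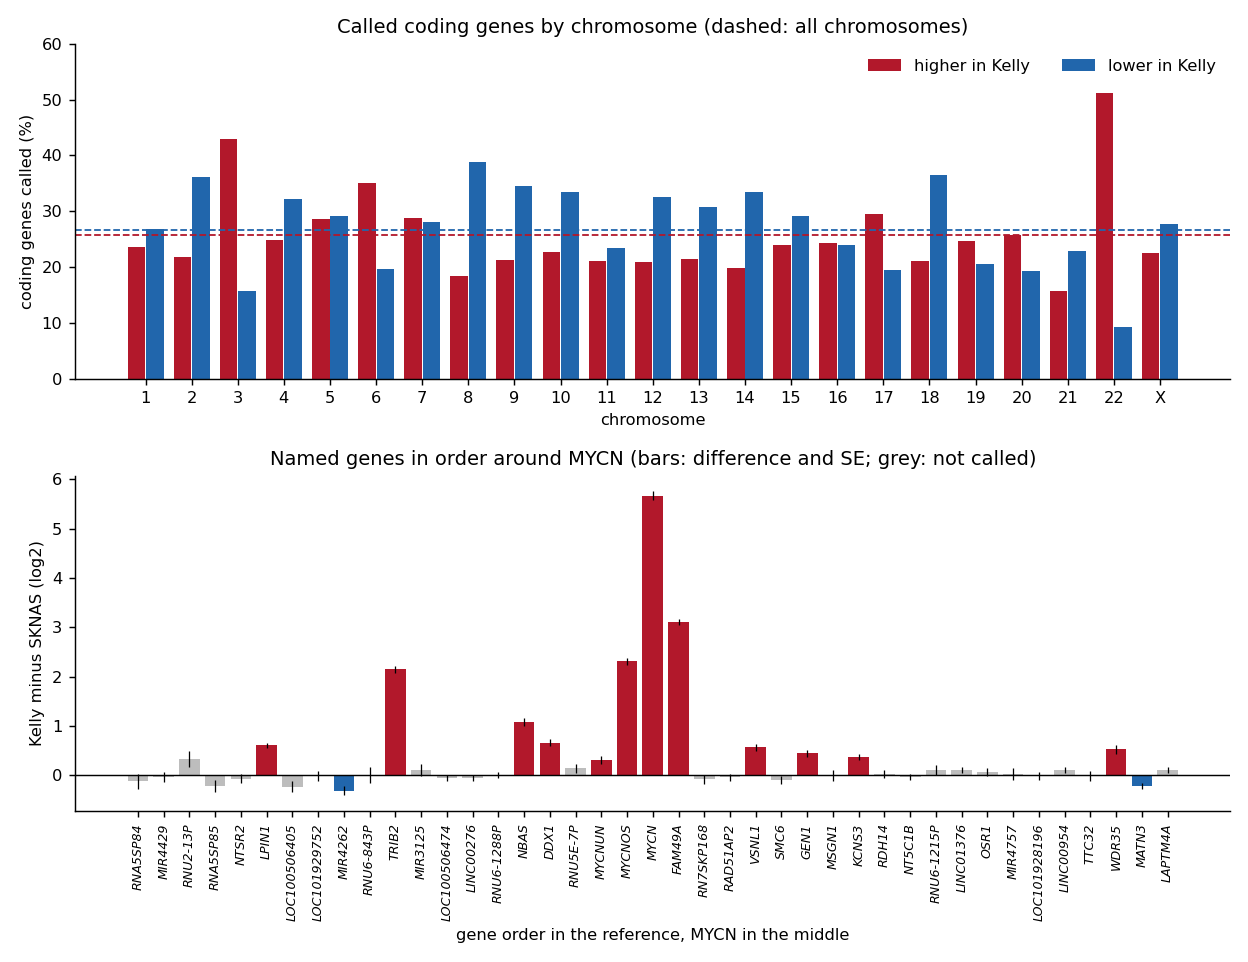
The upper panel gives the percentage of coding genes on each chromosome called higher (left bar) and lower (right bar) in Kelly, with the shares of all 18132 placed genes, 25.7% and 26.7%, as dashed lines; the lower panel gives the difference in log2 value with its SE for MYCN and 20 named genes on each side in their order. Chromosome 22 reaches 51.2% higher, and MYCN at 5.66 and FAM49A at 3.10 are the tallest bars of the lower panel.

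The same lines were measured again on 3 arrays each after CYC065, which the untreated comparison did not use. The dose given for SKNAS is 1 µM in the sample labels and 5 µM in the protocol, against 1 µM for Kelly, so the treatment may differ between the lines. In these arrays 12203 genes (37.2%) were called, 6081 (18.5%) higher and 6122 (18.7%) lower in Kelly. Of the 5976 genes higher in untreated Kelly, 4824 (80.7%) were again higher and 52 were lower, and of the 6122 lower ones, 5058 (82.6%) were again lower and 19 higher. At 2-fold or more, 1187 of 1199 higher genes (99.0%) and 1216 of 1223 lower genes (99.4%) were called the same way. Across the 32803 genes, which are not independent, the 2 sets of differences correlated at r of 0.950 and rho of 0.764.

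Some regulators had a smaller difference between the treated lines. MYCN differed by 2.74 there, and HAND1 by 3.08. VIM, DBH, S100A10 and LIN28B differed by -4.10, 5.92, -8.68 and 4.56, against -4.61, 5.99, -8.64 and 4.79 in untreated cells. HES1 differed by -2.10, against -3.18 in untreated cells. The change of a difference with treatment was not tested here.

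BE2C and SHSY5Y, the other amplified and not amplified lines, had arrays with higher background rows, between 3.66 and 3.71 in BE2C and between 3.66 and 3.92 in SHSY5Y. Between them 10120 genes (30.9%) were called, 5344 (16.3%) higher and 4776 (14.6%) lower in BE2C. Of the 5976 genes higher in Kelly, 1910 (32.0%) were also higher in BE2C and 1631 (27.3%) were lower there. Of the 6122 genes lower in Kelly, 1549 (25.3%) were also lower in BE2C and 1707 (27.9%) were higher. Among genes at least 2-fold higher in Kelly, 381 ran the same way and 444 the opposite way, and the differences of the 2 pairs correlated at r of -0.06 across genes.

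Single genes show where the pairs of lines part. For MYCN the difference was 5.66 between Kelly and SKNAS and 4.85 between BE2C and SHSY5Y, and for MYC it was -1.56 and -1.88. For DBH it was 5.99 and -0.93, for ALK 2.26 and -2.08, and for VIM -4.61 and 0.87. LIN28B was higher in both amplified lines, by 4.79 in Kelly and 1.76 in BE2C, and so was IGF2BP1, by 4.59 and 2.86. PRRX1 and YAP1 were lower in Kelly than in SKNAS, at -3.29 and -2.92, but did not pass the test between BE2C and SHSY5Y, at -0.03 and 0.01.

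The difference between the pairs was tested for 21 measured genes of a set chosen for both states, in a limma fit in which 35.6% of all genes differed between the pairs. It was called for 20 of the 21, and 9 genes were called in opposite directions and 5 in the same direction in the pairs. As lists, the adrenergic factors had 22 higher and 5 lower members in Kelly but 9 higher and 16 lower in BE2C, and the neuronal genes 30 higher and 2 lower in Kelly but 9 higher and 18 lower in BE2C. The structural mesenchymal genes had 3 higher and 34 lower in Kelly, and 18 higher and 8 lower in BE2C. Of the 51 genes of the growth list, 27 were higher and 8 lower in Kelly, and 35 higher and 5 lower in BE2C.

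**Figure D5:**
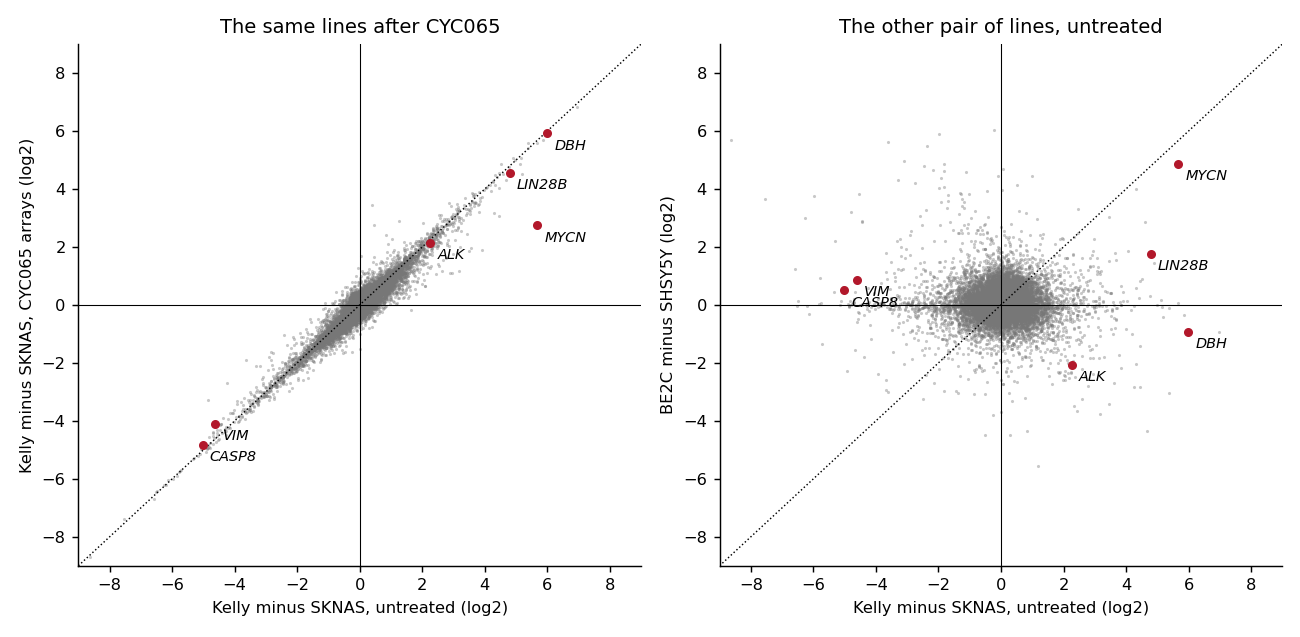
Differences in log2 value for 32803 genes in other arrays (vertical axes) against untreated Kelly minus SKNAS (horizontal axes), with Kelly minus SKNAS after CYC065 in the left panel and BE2C minus SHSY5Y in the right panel. The left panel follows the diagonal (r of 0.950), and the right panel does not (r of -0.06), although MYCN is high in both.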

How the data were processed

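RNA was hybridised to 24 Affymetrix human transcriptome arrays, of which the 6 untreated Kelly and SKNAS arrays give the differences. The others serve for the further comparisons, and the untreated BE2C and SHSY5Y arrays also enter the estimate of the spread. The deposited log2 values of 70523 array rows were produced by the authors using RMA, affy and limma per the submitters' processing notes, with versions and roles not given in the sources used here. RMA brings arrays to a common distribution, so a global change in RNA content would not be seen. Rows carry no gene names. A symbol of the authors' deposited table was assigned to 1 or 2 rows whose BE2C and SHSY5Y log2 fold changes and mean log2 levels equalled that table's within 1e-07. This named 32803 of 33720 symbols (97.3%), 26584 by 1 row and 6219 by 2, while 272 fitted several rows, 632 fitted none and 13 symbols read as dates were skipped. Of 24128 named genes with a chromosome in both sources, 24071 (99.8%) agreed. The same search with values moved between symbols gave 0 matches.

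Untreated arrays of 4 lines were fitted as 4 group means with limma 3.58.1 (R 4.3.3, lmFit and eBayes), and the contrast Kelly minus SKNAS was adjusted by the Benjamini-Hochberg method over all named genes and called under 0.05. The fit was tested on simulated data. Treated arrays were fitted likewise, and the difference between the pairs of lines as an interaction contrast. The number of arrays limits the precision.

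Genes named are the 20 largest differences each way among called genes whose arrays do not overlap (without small RNAs, immune and olfactory receptor genes, clone names and a few others), up to 8 of the largest called members of each list and uncalled members that the text counts, a fixed set of regulators, and the genes within 20 of MYCN. Members and lists were chosen with earlier results of these data known. Promoter windows and microRNAs were matched by symbol to RefSeq tables on GRCh38.p14 (16319 windows, and 14 of 14 called hairpins). Some genes are not reported here.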

Additional observations from a re-analysis of the deposited data

Results flagged for a closer look

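For 20 of the 21 measured genes of the fixed set, the difference Kelly minus SKNAS departed from the difference BE2C minus SHSY5Y by a test of the gap itself (interaction contrast in limma, adjusted over all 32803 genes, of which 35.6% passed). The gap is the first difference less the second, on the log2 scale. DBH had a gap of 6.92 (limma adjusted p = 1.15e-14), from 5.99 in the Kelly pair and -0.93 in the BE2C pair, and CHGA one of 4.96, from 5.12 and 0.16. ALK had 4.33, from 2.26 and -2.08, LIN28B 3.03, from 4.79 and 1.76, and TH 2.37, from 2.64 and 0.27.

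The adrenergic factors HAND2, GATA3 and ISL1 had gaps of 1.69, 1.68 and 0.96, each higher in Kelly than in SKNAS and lower in BE2C than in SHSY5Y. Negative gaps were found for CASP8 (-5.53), VIM (-5.48) and CD44 (-3.64), which were lower in Kelly and higher in BE2C. PRRX1, YAP1, FOSL1, WWTR1 and RUNX1 had gaps of -3.26, -2.92, -1.58, -0.80 and -0.33 and were not called between BE2C and SHSY5Y. NOTCH2 had a gap of 0.92 and was called only in the BE2C pair, where it differed by -1.03. MYCN and MYC ran the same way in the pairs, with gaps of 0.81 (limma adjusted p = 0.000146) and 0.32 (limma adjusted p = 0.0102). The pairs also differ in deposit and in the level of their background rows, whose part in the gaps was not tested.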

How the results depend on the processing

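The count of 12098 called genes lay between 9817 and 13539 under 11 other settings of the samples fitted, the scaling, the variance and the choice of rows, and between 11082 and 11388 without any one array. Higher genes numbered 4816 to 6634 (5491 to 5666 without one array) and lower genes 5001 to 6905 (5543 to 5813 without one array). With a minimum of 1.5-fold, 5151 genes were called, 2627 higher and 2524 lower in Kelly. Genes called at 2-fold or more numbered 1917 to 2422, and 2402 to 2444 without one array. The lowest counts under other settings, 9817, 4816, 5001 and 1917, came from testing only the 26584 genes with 1 row, so from fewer genes. The next lowest count of called genes was 11636, with housekeeping centring. Replicate numbers did not pair the arrays, since the deviations of same-numbered arrays correlated at 0.06, -0.06 and 0.10. With the replicate number as a block 12789 genes were called. The treated comparison gave 12112 and 12761 calls, and BE2C against SHSY5Y 8601 and 10285, under the other 2 choices of arrays. Of 291 called genes named in the text, 282 stayed called in the same direction under all 17 settings in which they could be tested, and none of the named genes reversed. CD9, SIX4, FOSL2, MEIS1, MGA and IFIT5 lost their call without at least one array, with limma adjusted p of at most 0.176, 0.121, 0.0902, 0.0586, 0.0720 and 0.0698. The arrays concerned were Kelly replicates 1, 2 and 3 and SKNAS replicates 1 and 3 for CD9, Kelly replicates 1 and 3 and SKNAS replicate 1 for SIX4, Kelly replicates 1 and 2 and SKNAS replicate 3 for FOSL2, Kelly replicates 1 and 2 and SKNAS replicate 2 for MEIS1, Kelly replicate 2 and SKNAS replicate 3 for MGA, and Kelly replicate 3 and SKNAS replicate 1 for IFIT5. CD9 also lost it with quantile normalization, median centring and housekeeping centring, and SIX4 with housekeeping centring. The other called genes that lost a call were CD276 with the mean of 2 rows, NCL with quantile normalization and RND3, the first gene of a run, with median centring and without Kelly replicate 3 or SKNAS replicate 1. Of 46 genes named that were not called, 8 were called under some settings, CYP2D6 under 5, CNTNAP2 under 4, CCND1 and TBX3 under 3, SLC7A9 under 2, and MAP1B, NTRK2 and SOX4 under 1, with limma adjusted p down to 0.0121, 0.00701, 0.0287, 0.0188, 0.0329, 0.0110, 0.0288 and 0.0419. Of 1258 counts of list members, 1224 lay within 1.5 times the reported count. Near the background rows, low signal limits what can be seen.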

Other observations

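The families in this part were picked after their values were seen and are given with no test, beside the 18.2% of all named genes that were higher and the 18.7% that were lower in Kelly (25.7% and 26.7% of coding genes). In the imprinted region of chromosome 14 between DLK1 and DIO3, rows of 101 genes were measured, 10 higher and 41 lower in Kelly. DLK1 and RTL1, expressed from the paternal copy, were higher by 5.36 and 5.38. Box C/D small nucleolar RNAs of the maternal copy, SNORD113 and SNORD114, were lower in 30 of 40 cases and higher in none, with a median of -0.70 and SNORD114-3 at -3.63. MEG8, a noncoding RNA of the same copy, differed by -0.84. Of 53 hairpin rows there, 8 were higher and 9 lower. MIR127, MIR136, MIR432, MIR433 and MIR431, which lie opposite RTL1 on the other strand, were higher by 2.95, 2.60, 2.36, 2.35 and 2.18. Whether those rows read the hairpins or RTL1 was not tested.

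Zinc finger genes with ZNF symbols were higher in Kelly in 251 of 496 cases and lower in 77. Away from chromosome 19, where many of them are clustered, 106 of 258 were higher and 57 lower. Replication-dependent histone genes, whose RNA accumulates in S phase, were higher in 28 of 60 cases and lower in 5. Metallothioneins, which bind zinc and copper, were lower in 9 of 11 cases and higher in none, with MT2A at -4.46 and MT1X at -2.77. Annexins were lower in 9 of 12 cases and higher in 1. Of 7 desmosomal cadherins, 3 were higher, DSG2 by 5.16, DSC3 by 4.27 and DSC2 by 3.23, while CDH1, the epithelial cadherin, was not called at -0.07. Among 22 MAGE genes, which are normally silent outside the germline, 2 were higher and 8 lower, with MAGEA10 and MAGEA1 at 1.63 and 1.33 and MAGEC1 and MAGEC2 at -4.56 and -3.31. Of 37 HOX genes 5 were higher and 2 lower, with HOXD13 at 3.50.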
